A study of Xenopus laevis with 16 samples.

Results

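Fibroblast growth factor (FGF) signalling was followed here through its ligands fgf3, fgf8 and fgf20, the receptors fgfr1 to fgfr4, and the intracellular feedback inhibitors spry1, spry2 and spred1. Members were chosen by gene symbol: a probe set of the array belonged to the set when its symbol, without the ending .L or .S, was one of these names. The names, and the lists used below, were chosen with earlier results of these data known. Counts of called members beside shares of all probe sets are therefore a description and no independent test. Xenopus laevis keeps paired gene copies from an ancient joining of 2 genomes, and .L and .S name the copies on the long and short chromosomes of a pair. The rule found 18 probe sets of 13 gene copies, among 32539 probe sets and 11303 gene copies named by a single symbol. There were 6 ligand probe sets, 7 receptor probe sets and 5 inhibitor probe sets.

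RNA was measured with Affymetrix arrays in animal caps, pieces of prospective ectoderm cut from the blastula at stage 9. Embryos received Pax3-GR with or without Zic1-GR at the 2-4 cell stage. These are forms of the neural border transcription factors Pax3 and Zic1 that act once the hormone dexamethasone is added. Of the 5 groups, each with 3 biological replicates, Pax3 Zic1 Chx caps carried both factors and received cycloheximide, which blocks protein synthesis, before and together with dexamethasone. Pax3 Zic1 caps carried both factors and received dexamethasone alone. Pax3 Chx caps carried Pax3-GR and received cycloheximide and dexamethasone, and Pax3 caps carried Pax3-GR and received dexamethasone. Control caps were neither injected nor treated. In all groups growth was at 15 °C. Cycloheximide was given at 0.1 mg/ml from stage 10, with 30 min of pretreatment before dexamethasone. Dexamethasone was given from stage 10.5 for 2 h at 23 °C, and caps were lysed when sibling embryos were at stage 11.5 to 12. No group received the injection, dexamethasone or cycloheximide without an active factor, so each difference from control caps includes injection and hormone, and in Chx caps also the drug. The labels do not give the number of caps in a sample.

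FGF ligands bind receptor tyrosine kinases and, through Ras, switch on the MAP kinase cascade. In the frog gastrula this pathway acts in mesoderm formation and gastrulation movements, and later in patterning of the nervous system and in induction of the neural crest at the border of the neural plate. Sprouty and Spred proteins are themselves often induced by FGF signalling and dampen it, so their transcripts are commonly read as a sign of pathway activity.

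All values are on the log2 scale of the deposited table, where a difference of 1 is a doubling. Levels of different probe sets cannot be set against each other. A change was called at an adjusted p under 0.05 in limma's moderated test, with Benjamini-Hochberg adjustment over all probe sets. A second fit held the replicate number as a block, because samples with the same number deviated together in every pair of groups. Unless a sentence names the blocked fit, its test is the one without the block. A ± after a difference is always the SE of the fit without the block, also where only a blocked p is given. The blocked fit has its own SE, which is not printed. The comparisons over control caps share the same 3 control samples, the Zic1 and Chx comparisons reuse the same injected samples, and all 9 comparisons came from one fit.

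Array means lay between 4.96 and 4.99, so arrays differed little in scale. Of 7 pax3 probe sets, 3 were higher in every injected group than in control caps, as Xl2.49495.3.S1_x_at (pax3.S) shows. It averaged 6.79 ± 0.84 in Pax3 Zic1 Chx caps, 6.90 ± 0.75 in Pax3 Zic1 caps, 6.27 ± 0.78 in Pax3 Chx caps and 5.91 ± 0.34 in Pax3 caps, against 1.94 ± 0.39 in control caps (SD, n = 3 each). The other 4 pax3 probe sets were not, as Xl2.54870.1.S1_at (pax3.L), at 6.22, 5.99, 6.20 and 6.56 in the same injected groups against 6.90 in control caps. Of the zic1.S probe sets, Xl2.1796.1.S1_at averaged 9.29 in Pax3 Zic1 and 8.15 in Pax3 caps, but Xl2.1796.1.S2_at averaged 8.56 in Pax3 Zic1 and 9.13 in Pax3 caps. No source used here says which of these probes bind the RNA that was injected. Epidermal markers were bright in control caps, with krt70.S at 12.3 and epcam.S at 11.4, as the label of ectodermal explants says, while tp63 probe sets were dim. Means over 20 ectoderm markers ran from 7.17 to 8.42 in Pax3 Zic1 Chx caps, from 8.11 to 8.33 in Pax3 Zic1 caps, from 7.82 to 8.61 in Pax3 Chx caps and from 7.95 to 8.79 in Pax3 caps, against 8.76 to 9.25 in control caps. The highest means over the mesoderm and endoderm marker lists were in Pax3 Zic1 Chx caps, both in replicate 3 of that group. Pax3 Zic1 replicate 3 deviated least with its number, at correlations of 0.428 to 0.511, where the lowest of the other pairs was 0.605.

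Counted over the 18 member probe sets, 7 were called in at least 1 of the 8 pairwise comparisons without the block and 13 with it, and 5 in neither. The share of all probe sets called in at least 1 of them was not counted, so these totals have no background to be read against. Over control caps, 5 rose and 0 fell in Pax3 Zic1 Chx caps, where 2.21% of all probe sets rose and 2.35% fell. In Pax3 Chx caps 3 rose and 0 fell, beside 1.28% and 1.24% of all. In Pax3 Zic1 caps 2 rose and 1 fell, beside 0.289% and 0.203%. All rises in Pax3 Chx and Pax3 Zic1 caps, and 3 of those in Pax3 Zic1 Chx caps, were probe sets of fgf8.L. The called probe sets thus stood for 3 gene copies in Pax3 Zic1 Chx, 1 in Pax3 Chx and 2 in Pax3 Zic1 caps. In Pax3 caps limma called 0 of 18, with 0.286% of all probe sets called. There 7 members had an unadjusted p under 0.05. The share of all probe sets at that unadjusted level was not counted, here or for the unadjusted counts below.

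In the blocked fit 10 members were higher and 0 lower than control in Pax3 Zic1 Chx caps, beside 9.15% of all probe sets higher and 9.78% lower. In Pax3 Chx caps 7 were higher and 0 lower (7.87% and 6.99% of all). In Pax3 Zic1 caps 6 were higher and 2 lower (2.17% and 2.18% of all), and in Pax3 caps 4 and 2 (0.839% and 1.3% of all). The 3 responding fgf8.L probe sets read one gene and are in each of these counts of higher members. In Pax3 Zic1 Chx caps fgfr2.L and spry1.S also count with more than 1 probe set. The probe sets called in the blocked fit stood for 6 gene copies in Pax3 Zic1 Chx, 5 in Pax3 Chx, 6 in Pax3 Zic1 and 4 in Pax3 caps.

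Without a test, the groups did not overlap for 9 members in Pax3 Zic1 Chx caps (9 higher, with 20.6% of all probe sets free of overlap), 10 in Pax3 Zic1 caps (8 higher, 9.13%), 7 in Pax3 Chx caps (7 higher, 19.6%) and 9 in Pax3 caps (6 higher, 7.96%), each against control caps. Median member differences from control were 0.81, 0.36, 0.49 and 0.23 in the same order of groups, beside −0.03, 0.00, −0.03 and 0.02 over all probe sets.

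Zic1-GR added to Pax3-GR gave 0 called members without the block in either drug setting, with 0.0184% of all probe sets called between Pax3 Zic1 and Pax3 caps and 0.0338% between Pax3 Zic1 Chx and Pax3 Chx caps. At an unadjusted p under 0.05 these were 2 and 3 members, with no share of all probe sets counted at that level. The blocked limma fit called 0 (1.12% of all) and 1 (0.744% of all), and that member was fgfr4.L. Between Pax3 Chx and Pax3 caps 2 members were called higher without the block (0.504% of all higher) and 5 with it (5.46%). Between Pax3 Zic1 Chx and Pax3 Zic1 caps these were 1 (0.842%) and 5 (7.98%). Whether the effect of Zic1-GR differed with the drug was tested as an interaction, which called 0 members in either limma fit and 0% of all probe sets. Its single unadjusted p under 0.05 was that of fgfr4.L (−0.78 ± 0.27, limma adjusted p = 1).

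**Figure D1:**
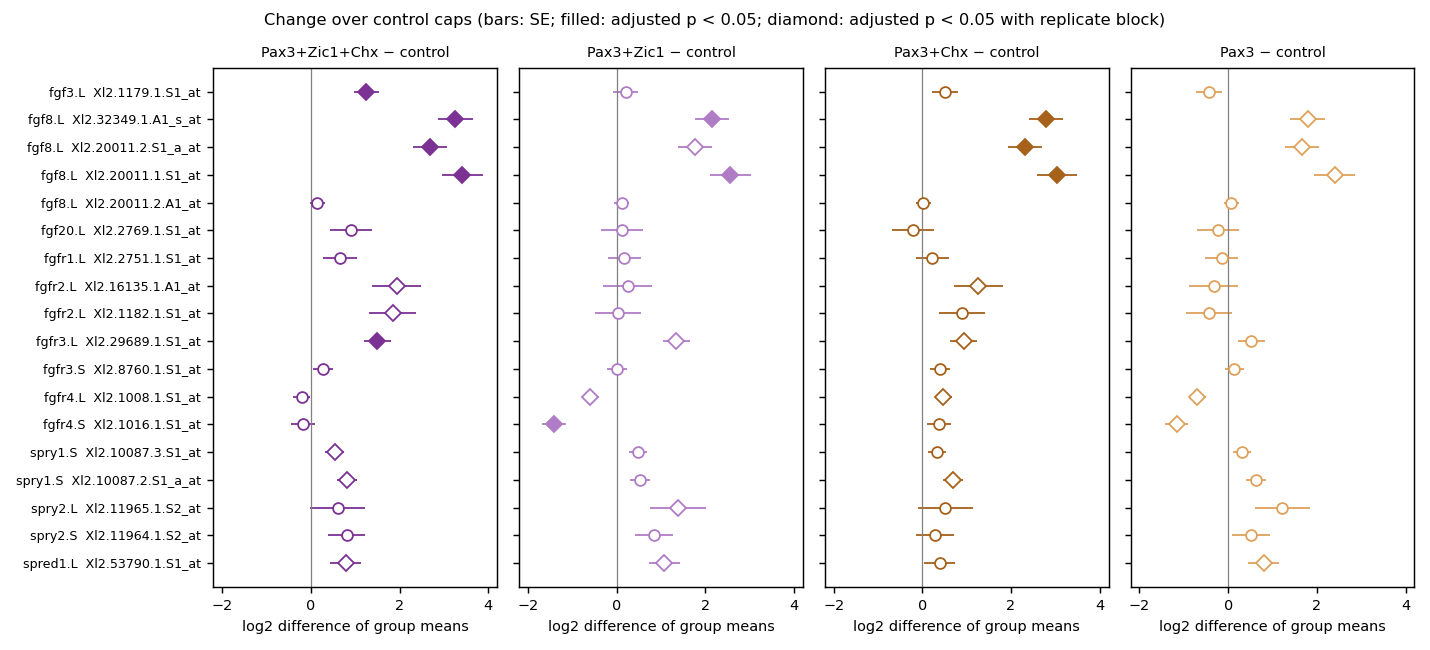
Log2 difference from control caps for the 18 member probe sets, in a panel for each of the 4 injected groups; bars give the SE, filled points an adjusted p under 0.05 without the block, and diamonds an adjusted p under 0.05 with it. The 3 responding fgf8.L probe sets are the furthest right in each panel. Both fgfr4 copies are left of 0 in Pax3 Zic1 and Pax3 caps, and less far left in Pax3 Zic1 Chx caps (fgfr4.L −0.20, fgfr4.S −0.18).

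Among the members, 3 of the 4 probe sets of the ligand fgf8.L held the largest changes over control caps. In both cycloheximide groups these 3 rose, by 4.99-fold to 10.7-fold over control caps, and 2 of them rose in Pax3 Zic1 caps. Fgf8, a ligand that in Xenopus acts in mesoderm and neural crest induction, was the only member gene called in more than one group over control without the block. Fgf3.L rose over control caps in Pax3 Zic1 Chx caps, and fgf20.L was called nowhere.

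The fgf8.L probe set with the highest mean, Xl2.32349.1.A1_s_at, read 7.80, 8.87 and 9.55 in Pax3 Zic1 Chx caps and 7.08, 7.60 and 8.23 in Pax3 Zic1 caps. It read 8.14, 8.23 and 8.44 in Pax3 Chx caps and 7.59, 7.31 and 6.94 in Pax3 caps, against 5.30, 5.28 and 5.87 in control caps (replicates 1, 2 and 3 throughout). Every injected sample lay above every control sample, by at least the gap between 6.94 in Pax3 replicate 3 and 5.87 in control replicate 3. Group means fell in the order Pax3 Zic1 Chx (8.74 ± 0.88), Pax3 Chx (8.27 ± 0.15), Pax3 Zic1 (7.64 ± 0.58), Pax3 (7.28 ± 0.33) and control (5.48 ± 0.33). The SD between replicates was largest in Pax3 Zic1 Chx caps and smallest in Pax3 Chx caps.

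Over control caps, this fgf8.L probe set rose by 3.26 ± 0.39 (SE, 9.58-fold, adjusted p = 0.000631, limma) in Pax3 Zic1 Chx caps. The rise was 2.79 ± 0.39 (6.90-fold, adjusted p = 0.00298) in Pax3 Chx caps and 2.15 ± 0.39 (4.44-fold, adjusted p = 0.0353) in Pax3 Zic1 caps. In Pax3 caps the difference of 1.79 ± 0.39 was called only in the blocked fit (limma adjusted p = 0.115 without and 0.0143 with the block). Each difference was positive in 3 of 3 replicate numbers. In samples of whole explants, more cells with a transcript and more transcript per cell cannot be told apart. The calls in both Chx groups held when any of the 15 samples was left out. That in Pax3 Zic1 caps held only without Pax3 replicate 1, Pax3 Zic1 Chx replicate 1 or 3, or Pax3 Zic1 replicate 1, and was 1.86 (adjusted p = 0.169) without Pax3 Zic1 replicate 3.

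Probe sets Xl2.20011.1.S1_at and Xl2.20011.2.S1_a_at, also of fgf8.L, followed the same course. The one ending in 1.S1_at read 5.30, 6.30 and 7.06 in Pax3 Zic1 Chx caps, 4.59, 5.45 and 6.04 in Pax3 Zic1 caps, 5.87, 6.10 and 5.56 in Pax3 Chx caps and 5.76, 5.34 and 4.52 in Pax3 caps, against 2.55, 2.75 and 3.11 in control caps. It rose over control by 3.42 ± 0.46 (10.7-fold, adjusted p = 0.00122) in Pax3 Zic1 Chx caps, 3.04 ± 0.46 (8.21-fold, adjusted p = 0.0043) in Pax3 Chx caps and 2.56 ± 0.46 (5.90-fold, adjusted p = 0.0323) in Pax3 Zic1 caps, by limma. Again no injected sample overlapped the controls. In Pax3 caps its difference of 2.40 ± 0.46 had an adjusted p of 0.0615 in limma, and 0.0141 with the block. The call in Pax3 Zic1 caps was lost without any 1 of the 3 control or 3 Pax3 Chx samples or Pax3 Zic1 replicate 2 or 3, with 2.22 (adjusted p = 0.156) in the last case.

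Probe set Xl2.20011.2.S1_a_at read 5.19, 6.38 and 7.02 in Pax3 Zic1 Chx caps, 4.73, 5.46 and 5.66 in Pax3 Zic1 caps, 5.89, 5.83 and 5.77 in Pax3 Chx caps and 5.60, 5.16 and 4.79 in Pax3 caps, against 3.53, 3.37 and 3.63 in control caps. Its lowest injected sample, Pax3 Zic1 replicate 1, was still above its highest control. It rose by 2.69 ± 0.38 (limma adjusted p = 0.00175) in Pax3 Zic1 Chx caps and by 2.32 ± 0.38 (adjusted p = 0.00666) in Pax3 Chx caps. Differences of 1.77 ± 0.38 in Pax3 Zic1 caps and 1.67 ± 0.38 in Pax3 caps were called with the block only (limma adjusted p = 0.0771 and 0.141 without it, 0.0184 and 0.0372 with it). Over the 15 samples the 3 responding probe sets correlated at Pearson r of 0.976 to 0.987, a description of probes that read one gene in the same samples.

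The remaining fgf8.L probe set, Xl2.20011.2.A1_at, did not move with them. It read 2.68, 2.72 and 2.99 in Pax3 Zic1 Chx caps, 2.70, 2.84 and 2.75 in Pax3 Zic1 caps, 2.32, 2.94 and 2.75 in Pax3 Chx caps and 2.85, 2.83 and 2.48 in Pax3 caps, against 2.85, 2.64 and 2.46 in control caps. All groups overlapped, its correlation with the other fgf8.L probe sets was 0.296 to 0.335, and its differences over the 8 pairwise comparisons lay between −0.05 and 0.15. Its mean stood at the 24.9th percentile of all probe sets, and no source used here says which transcript or strand it reads.

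Adding Zic1-GR to Pax3-GR gave no called difference in fgf8.L, with or without the block. Between Pax3 Zic1 and Pax3 caps the responding probe sets differed by 0.36 (95% interval −0.50 to 1.21), 0.16 (−0.84 to 1.15) and 0.10 (−0.73 to 0.93). Between Pax3 Zic1 Chx and Pax3 Chx caps the differences were 0.47 (−0.38 to 1.33), 0.38 (−0.62 to 1.38) and 0.37 (−0.46 to 1.20). Each interval held 0, and 5 of the 6 reached past a doubling. Of the 6 comparisons of the responding probe sets between caps with and without cycloheximide, limma called 1 in the blocked fit and 0 in the other. The first probe set was 0.99 ± 0.39 higher in Pax3 Chx than in Pax3 caps (limma adjusted p = 0.377, blocked 0.0754). It was 1.11 ± 0.39 higher in Pax3 Zic1 Chx than in Pax3 Zic1 caps, a difference called with the block only (limma adjusted p = 0.217, blocked 0.0394). Xl2.20011.2.S1_a_at differed by 0.65 ± 0.38 with Pax3 and 0.91 ± 0.38 with both factors (limma blocked adjusted p = 0.296 and 0.110), and Xl2.20011.1.S1_at by 0.63 ± 0.46 and 0.86 ± 0.46 (blocked 0.403 and 0.203), none of them called.

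**Figure D2:**
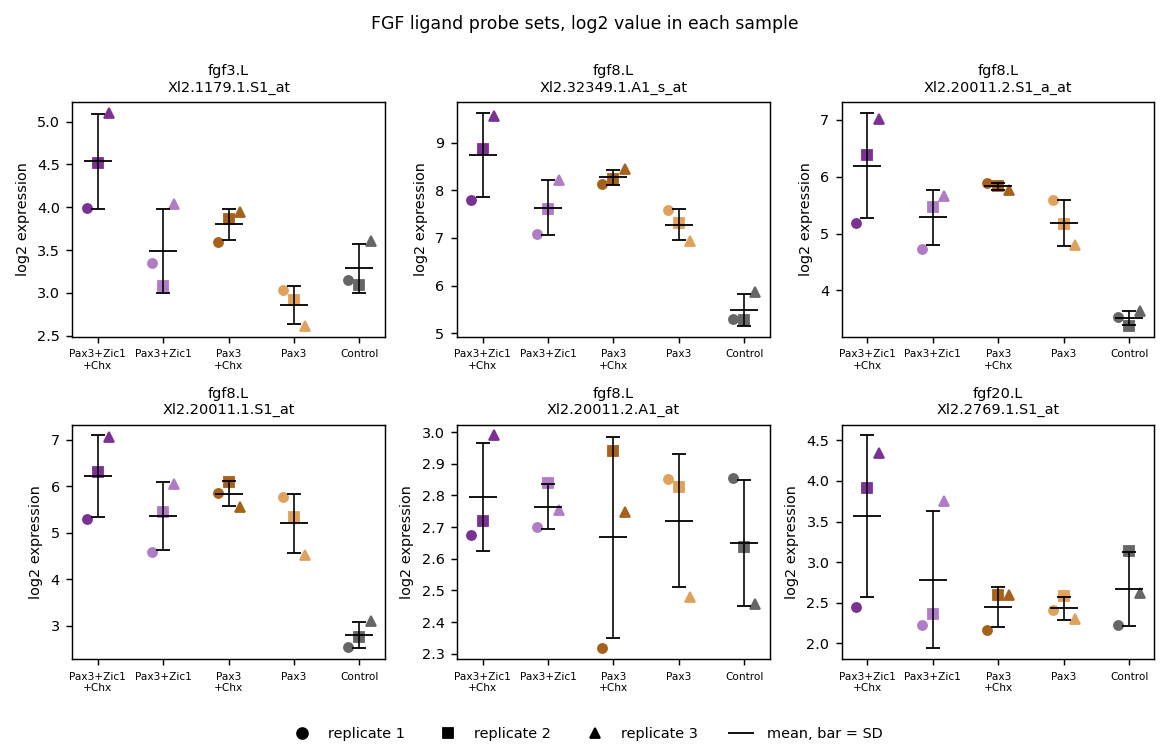
Log2 level of the 6 ligand probe sets by group, one panel each, with Pax3 Zic1 Chx caps at the left and control caps at the right. Symbols give replicate 1 (circle), 2 (square) and 3 (triangle), black lines the mean and bars the SD (n = 3). In 3 fgf8.L panels all injected samples lie above the controls, and in the panel of Xl2.20011.2.A1_at all groups overlap.

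Fgf3.L (Xl2.1179.1.S1_at), a ligand found in early mesoderm and hindbrain, read 3.99, 4.52 and 5.10 in Pax3 Zic1 Chx caps and 3.35, 3.08 and 4.03 in Pax3 Zic1 caps. It read 3.60, 3.87 and 3.94 in Pax3 Chx caps and 3.04, 2.92 and 2.61 in Pax3 caps, against 3.15, 3.10 and 3.61 in control caps. All Pax3 Zic1 Chx samples were above all controls, whereas all Pax3 samples were below them. Fgf3.L rose by 1.25 ± 0.29 over control (2.38-fold, limma adjusted p = 0.0281) in Pax3 Zic1 Chx caps. The call was lost without control replicate 1 or 2 or Pax3 Zic1 Chx replicate 2 or 3, with an adjusted p up to 0.111, and in the fit on the compared groups only (adjusted p = 0.128). In Pax3 Chx caps fgf3.L differed from control by 0.52 ± 0.29, positive in 3 of 3 replicate numbers and not called (limma adjusted p = 0.512, blocked 0.174). The difference of Pax3 Zic1 Chx from Pax3 Chx caps was 0.73 ± 0.29 and was not called (limma adjusted p = 1, blocked 0.287). Chx caps were higher than their counterparts without the drug by 0.94 ± 0.29 with Pax3 (limma adjusted p = 0.207, blocked 0.0285) and by 1.05 ± 0.29 with both factors (limma adjusted p = 0.107, blocked 0.0134).

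Fgf20.L (Xl2.2769.1.S1_at), a further secreted ligand, had single high samples and no called change. It read 2.45, 3.91 and 4.35 in Pax3 Zic1 Chx caps, 2.23, 2.36 and 3.75 in Pax3 Zic1 caps, 2.16, 2.59 and 2.59 in Pax3 Chx caps and 2.41, 2.58 and 2.30 in Pax3 caps, against 2.23, 3.14 and 2.62 in control caps. Only replicates 2 and 3 of Pax3 Zic1 Chx caps and replicate 3 of Pax3 Zic1 caps stood above all controls. The difference of Pax3 Zic1 Chx from control caps was 0.90 ± 0.47 (limma adjusted p = 0.401, blocked 0.106).

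As lists, mesoderm and endoderm markers had their highest median difference from control in Pax3 Zic1 Chx caps. Single markers differed, and each endoderm marker called there had a larger difference in Pax3 Zic1 or Pax3 Chx caps. Gata6.L rose by 4.10 in Pax3 Zic1 and by 2.60 in Pax3 Zic1 Chx caps, and sox17a.S by 4.29 in Pax3 Chx and 2.62 in Pax3 Zic1 Chx caps. Of the mesoderm markers called there, foxf1.L, vegt.L, wnt11b.L and wnt8a.L were highest in that group and myod1.S in Pax3 Zic1 caps. The median mesoderm difference from control was 1.04 in Pax3 Zic1 Chx, 0.02 in Pax3 Zic1, 0.09 in Pax3 Chx and −0.21 in Pax3 caps. For endoderm markers it was 2.00, 0.57, 0.55 and −0.04 in the same order. Means over 20 mesoderm markers were 3.77, 4.89 and 5.94 in Pax3 Zic1 Chx caps, 3.74, 3.97 and 4.45 in Pax3 Zic1 caps, 3.37, 3.82 and 4.17 in Pax3 Chx caps and 3.31, 3.63 and 3.19 in Pax3 caps, against 3.05, 3.60 and 4.04 in control caps. Of these markers, 5 rose over control in Pax3 Zic1 Chx caps, 1 in Pax3 Chx caps and 0 in the other groups (limma). Of all probe sets 2.21% rose in Pax3 Zic1 Chx, 0.289% in Pax3 Zic1 and 1.28% in Pax3 Chx caps, with 0.286% called in Pax3 caps. The blocked fit had 7 markers higher in Pax3 Zic1 Chx, 3 in Pax3 Chx, 3 in Pax3 Zic1 and 0 in Pax3 caps. It called 9.15%, 7.87%, 2.17% and 0.839% of all probe sets higher, in that order. At an unadjusted p under 0.05 there were 10 markers in Pax3 Zic1 Chx, 5 in Pax3 Zic1, 2 in Pax3 Chx and 1 in Pax3 caps. For that level no share of all probe sets was counted. Mesoderm means of all 4 injected groups overlapped the control range. On the log2 of the summed markers, Pax3 Zic1 Chx caps lay wholly above control caps. Within Pax3 Zic1 Chx caps replicates 1, 2 and 3 had the same order in fgf8.L (Xl2.32349.1.A1_s_at) and in the mesoderm mean. The order was also shared in Pax3 Zic1 and Pax3 Chx caps, but not in Pax3 or control caps. In Pax3 caps this probe set read 7.59, 7.31 and 6.94, beside mesoderm means of 3.31, 3.63 and 3.19. The other responding fgf8.L probe sets did not share the order in Pax3 Chx caps. In Pax3 Zic1 Chx caps fgf3.L, fgf20.L, fgfr1.L, fgfr2.L, spry2.L and spry2.S also rose from replicate 1 to 3. The fgfr3 and fgfr4 copies, spry1.S and spred1.L did not. The shared order was thus not particular to fgf8.L.

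Means over 16 endoderm markers were 4.02, 4.98 and 6.43 in Pax3 Zic1 Chx caps, 3.55, 4.31 and 4.77 in Pax3 Zic1 caps, 4.22, 4.57 and 5.02 in Pax3 Chx caps and 3.59, 4.11 and 3.89 in Pax3 caps, against 3.00, 3.83 and 3.35 in control caps. Endoderm markers that rose numbered 6 in Pax3 Zic1 Chx, 2 in Pax3 Zic1, 4 in Pax3 Chx and 1 in Pax3 caps, and 0 fell (limma). Of all probe sets 2.21% rose in Pax3 Zic1 Chx, 0.289% in Pax3 Zic1 and 1.28% in Pax3 Chx caps, with 0.286% called in Pax3 caps. With the block 7, 4, 6 and 4 markers were higher in the same order of groups, and 1 was lower, in Pax3 caps. The blocked fit called 9.15%, 2.17%, 7.87% and 0.839% of all probe sets higher in that order, and 1.3% lower in Pax3 caps. Endoderm means of both Chx groups lay wholly above control caps. No marker is at 0 on this scale. On the log2 of their sum, the mesoderm markers spanned 9.88 to 11.9 in Pax3 Zic1 Chx caps and 8.38 to 9.83 in control caps, and the endoderm markers 8.55 to 10.7 and 7.76 to 8.82 in the same groups. The part of mesoderm or endoderm cells in the levels of fgf8.L, fgf3.L and fgf20.L was not tested.

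**Figure D3:**
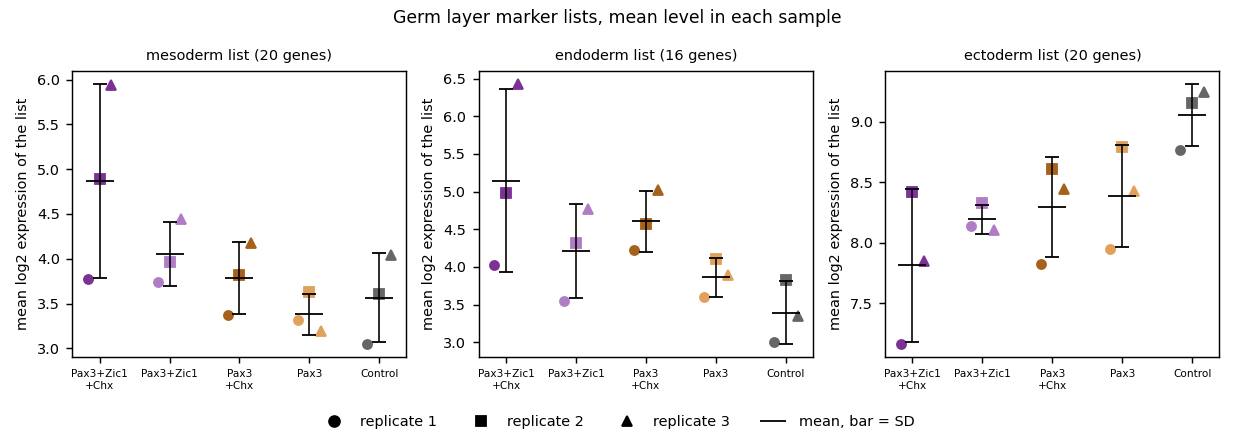
Mean log2 level of 20 mesoderm, 16 endoderm and 20 ectoderm markers in each sample, by group, with Pax3 Zic1 Chx caps at the left and control caps at the right; symbols give replicates 1 (circle), 2 (square) and 3 (triangle). The highest mesoderm and endoderm means, 5.94 and 6.43, are both Pax3 Zic1 Chx replicate 3, and the highest ectoderm mean, 9.25, is control replicate 3.

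Receptor genes differed in direction. Fgfr4.S fell in Pax3 Zic1 caps, and both fgfr4 copies were higher with cycloheximide than without it in Pax3 caps. Fgfr3.L rose over control in Pax3 Zic1 Chx caps. Fgfr2.L was called in the blocked fit only, always higher in Chx caps, and fgfr1.L and fgfr3.S were called nowhere.

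Fgfr4.S (Xl2.1016.1.S1_at), one copy of an FGF receptor tyrosine kinase, read 9.82, 10.4 and 9.72 in Pax3 Zic1 Chx caps and 9.16, 8.99 and 8.05 in Pax3 Zic1 caps. It read 10.4, 10.8 and 10.4 in Pax3 Chx caps and 9.08, 9.15 and 8.72 in Pax3 caps, against 10.0, 10.2 and 10.3 in control caps. All samples injected and not treated with cycloheximide lay under every control, and all Pax3 Chx samples lay above every control. Fgfr4.S fell by 1.42 ± 0.27 (0.375-fold, limma adjusted p = 0.0435) in Pax3 Zic1 caps. That call held in only 2 of 15 fits with 1 sample left out, those without Pax3 Zic1 replicate 1 or Pax3 Zic1 Chx replicate 2, and the adjusted p reached 0.173 without control replicate 3. In Pax3 caps the difference of −1.16 ± 0.27 was called with the block only (limma adjusted p = 0.146, blocked 0.0139).

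Cycloheximide caps had more fgfr4.S than their counterparts, by 1.55 ± 0.27 with Pax3 (2.92-fold, limma adjusted p = 0.0191) and by 1.23 ± 0.27 with both factors (2.35-fold, adjusted p = 0.042). The first call was lost without any 1 Pax3 Chx sample or Pax3 replicate 1 or 3, with an adjusted p up to 0.106. The second held only without Pax3 Zic1 replicate 1 and reached 0.126 without Pax3 Zic1 Chx replicate 2. Both were called with the block (limma adjusted p = 0.00155 and 0.00352).

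Fgfr4.L (Xl2.1008.1.S1_at), the other copy, read 7.52, 7.80 and 7.44 in Pax3 Zic1 Chx caps and 7.26, 7.34 and 6.98 in Pax3 Zic1 caps. It read 8.26, 8.59 and 7.93 in Pax3 Chx caps and 6.88, 7.44 and 6.95 in Pax3 caps, against 7.73, 7.82 and 7.81 in control caps. As for the .S copy, Pax3 and Pax3 Zic1 samples were below every control and Pax3 Chx samples above them. Fgfr4.L was 1.17 ± 0.19 higher in Pax3 Chx than in Pax3 caps (2.24-fold, limma adjusted p = 0.0149). The call was lost without Pax3 Chx replicate 1 or 2 or Pax3 replicate 1 or 3, with an adjusted p up to 0.0886.

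With the block, fgfr4.L was also called lower than control in Pax3 caps (−0.69 ± 0.19, limma adjusted p = 0.303 without and 0.0135 with the block) and in Pax3 Zic1 caps (−0.59 ± 0.19, 0.346 without and 0.0214 with it). It was called higher than control in Pax3 Chx caps (0.47 ± 0.19, limma adjusted p = 0.309 without and 0.0265 with the block). In the same fit it was the only member that differed with Zic1-GR, being 0.67 ± 0.19 lower in Pax3 Zic1 Chx than in Pax3 Chx caps (change −0.67, limma adjusted p = 0.614 without and 0.0327 with the block). The .S copy differed by −0.56 ± 0.27 there and was not called.

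Fgfr3.L (Xl2.29689.1.S1_at), a receptor copy, read 5.58, 6.19 and 5.79 in Pax3 Zic1 Chx caps, 5.06, 6.07 and 5.97 in Pax3 Zic1 caps, 5.19, 5.71 and 4.96 in Pax3 Chx caps and 5.01, 5.22 and 4.39 in Pax3 caps, against 4.26, 4.27 and 4.53 in control caps. Apart from Pax3 replicate 3, every injected sample exceeded all controls. It rose by 1.50 ± 0.30 (2.82-fold, limma adjusted p = 0.0135) in Pax3 Zic1 Chx caps, a call lost without control replicate 1 or 2 or Pax3 Zic1 Chx replicate 2, with an adjusted p up to 0.0557. With the block it was also called in Pax3 Zic1 caps (1.35 ± 0.30, limma adjusted p = 0.0888 without and 0.00959 with it) and in Pax3 Chx caps (0.93 ± 0.30, 0.166 without and 0.0253 with it).

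Fgfr2.L was read by 2 probe sets that agreed. Xl2.16135.1.A1_at read 8.47, 8.70 and 9.54 in Pax3 Zic1 Chx caps, 7.27, 6.48 and 7.88 in Pax3 Zic1 caps, 7.75, 7.44 and 9.49 in Pax3 Chx caps and 6.54, 6.16 and 7.21 in Pax3 caps, against 6.82, 6.38 and 7.70 in control caps. Xl2.1182.1.S1_at read 8.16, 8.79 and 9.49 in Pax3 Zic1 Chx caps, 7.26, 6.49 and 7.26 in Pax3 Zic1 caps, 7.18, 7.33 and 9.11 in Pax3 Chx caps and 6.21, 6.39 and 7.02 in Pax3 caps, against 6.55, 6.62 and 7.75 in control caps. Replicate 3 was the highest or level with the highest in every group of both probe sets, and all Pax3 Zic1 Chx samples exceeded all controls.

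The calls of fgfr2.L, another receptor kinase of the family, came with the block only. Pax3 Zic1 Chx caps exceeded control caps by 1.94 ± 0.56 and 1.84 ± 0.52 in the 2 probe sets, in the order above (limma adjusted p = 0.0771 and 0.073 without the block, 0.000132 and 0.00116 with it). They exceeded Pax3 Zic1 caps by 1.69 ± 0.56 and 1.81 ± 0.52 (limma adjusted p = 0.179 and 0.123 without, 0.000907 and 0.00244 with the block). Pax3 Chx caps exceeded Pax3 caps by 1.59 ± 0.56 and 1.33 ± 0.52 (limma adjusted p = 0.294 and 0.368 without, 0.00163 and 0.0151 with the block). Over control caps, Pax3 Chx caps were called in the first probe set alone (1.26 ± 0.56, limma adjusted p = 0.365 without and 0.00297 with the block).

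Fgfr1.L (Xl2.2751.1.S1_at), the receptor through which much of FGF signalling in early frog mesoderm passes, lay between 7.88 and 8.88 over the 6 samples with both factors, between 7.46 and 8.80 over the 6 with Pax3 alone and between 7.38 and 8.70 in control caps. Every injected group overlapped control caps for fgfr1.L, and its 8 pairwise differences lay between −0.15 and 0.66. Fgfr3.S (Xl2.8760.1.S1_at) averaged 3.70 in Pax3 Zic1 Chx, 3.42 in Pax3 Zic1, 3.82 in Pax3 Chx and 3.56 in Pax3 caps, against 3.42 in control caps, with differences between −0.14 and 0.39.

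**Figure D4:**
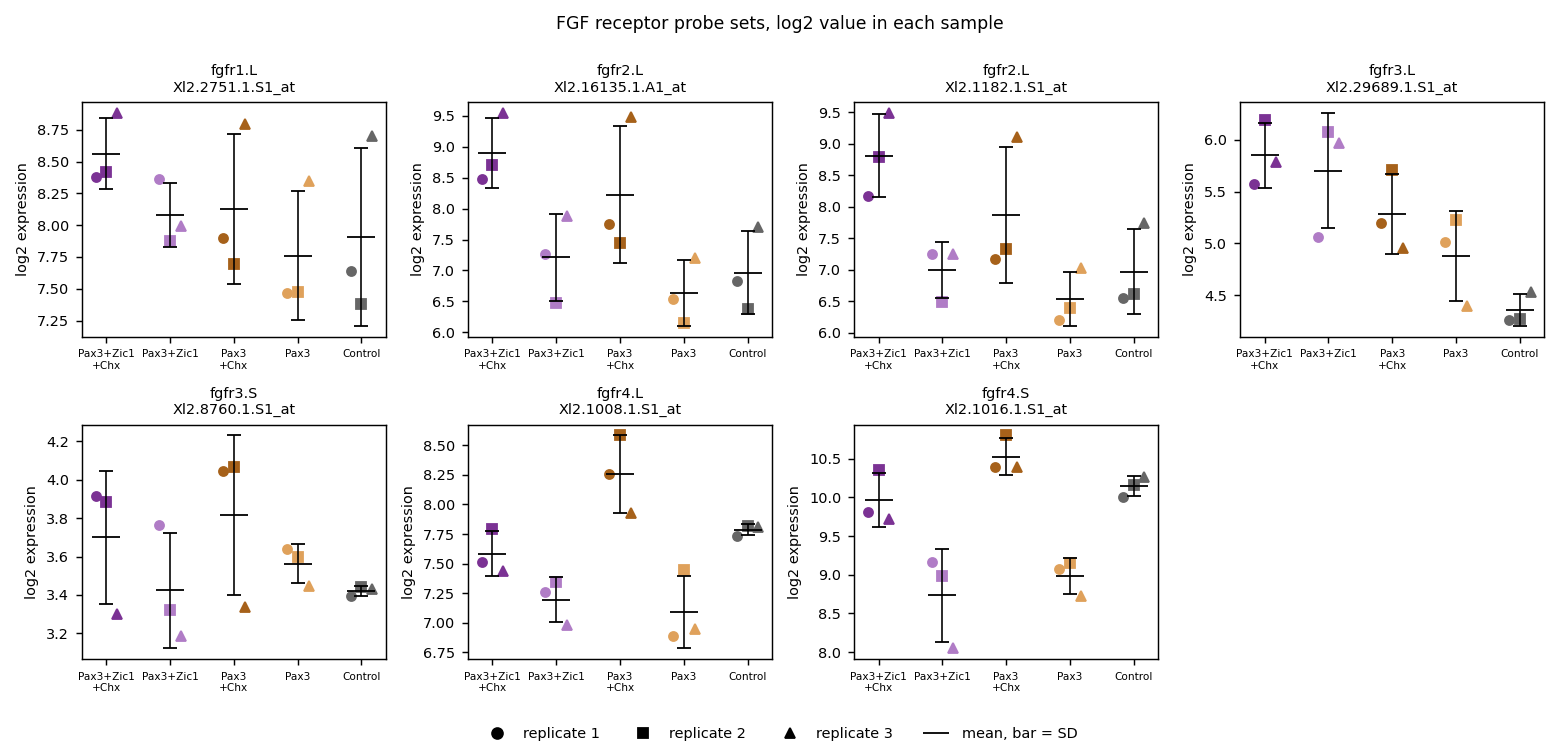
Log2 level of the 7 receptor probe sets by group, one panel each, with Pax3 Zic1 Chx caps at the left and control caps at the right. Symbols give replicates 1 (circle), 2 (square) and 3 (triangle), black lines the mean and bars the SD (n = 3). Both fgfr4 panels have Pax3 Zic1 and Pax3 samples below the controls and Pax3 Chx samples above them, and in the fgfr2.L panels replicate 3 lies at or near the top of each group.

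None of the 5 feedback inhibitor probe sets was called without the block. In the blocked fit spred1.L was called higher than control in 3 groups, spry1.S in both Chx groups and spry2.L in Pax3 Zic1 caps, and all of these differences were increases. Spry2.S was called nowhere.

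Spred1.L (Xl2.53790.1.S1_at), an inhibitor of Ras signalling to the MAP kinase cascade, read 3.44, 4.54 and 4.49 in Pax3 Zic1 Chx caps and 4.05, 4.39 and 4.91 in Pax3 Zic1 caps. It read 3.38, 3.51 and 4.40 in Pax3 Chx caps and 3.80, 4.14 and 4.60 in Pax3 caps, against 3.24, 3.30 and 3.58 in control caps. Pax3 Zic1 and Pax3 samples were all above the controls, while both Chx groups overlapped them through replicate 1 and, in Pax3 Chx caps, also replicate 2. Over control caps spred1.L was 1.08 ± 0.35 higher in Pax3 Zic1 caps (limma adjusted p = 0.358 without and 0.00721 with the block), 0.80 ± 0.35 in Pax3 caps (1 without and 0.0486 with it) and 0.78 ± 0.35 in Pax3 Zic1 Chx caps (0.302 without and 0.0123 with it).

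Spry2.L (Xl2.11965.1.S2_at), a Sprouty copy, read 3.02, 4.67 and 5.20 in Pax3 Zic1 Chx caps and 4.23, 4.99 and 6.01 in Pax3 Zic1 caps. It read 3.15, 4.25 and 5.25 in Pax3 Chx caps and 4.73, 4.52 and 5.49 in Pax3 caps, against 3.56, 3.72 and 3.81 in control caps. Again the groups without cycloheximide lay wholly above the controls, and in each Chx group replicate 1 fell below them. Pax3 Zic1 caps exceeded control caps by 1.38 ± 0.62 (limma adjusted p = 0.694 without and 0.0465 with the block), and Pax3 caps by 1.22 ± 0.62, which was not called (adjusted p = 1, blocked 0.125).

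Neither spred1.L nor spry2.L was called between caps with and without cycloheximide, in either fit. For spred1.L the differences were −0.41 ± 0.35 in Pax3 Chx from Pax3 caps and −0.30 ± 0.35 in Pax3 Zic1 Chx from Pax3 Zic1 caps (limma blocked adjusted p = 0.180 and 0.298), with replicate number 2 of the second pair at 0.15. For spry2.L they were −0.70 ± 0.62 and −0.78 ± 0.62 in the same order (blocked 0.228 and 0.145).

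Spry1.S was read by 2 probe sets. Xl2.10087.2.S1_a_at read 3.47, 3.86 and 3.64 in Pax3 Zic1 Chx caps, 3.37, 3.77 and 2.98 in Pax3 Zic1 caps, 3.69, 3.46 and 3.46 in Pax3 Chx caps and 3.68, 3.75 and 3.01 in Pax3 caps, against 3.06, 2.83 and 2.65 in control caps. Only replicate 3 of Pax3 Zic1 and of Pax3 caps fell within the control range. It exceeded control by 0.81 ± 0.23 in Pax3 Zic1 Chx caps (limma adjusted p = 0.071 without and 0.0072 with the block) and by 0.69 ± 0.23 in Pax3 Chx caps (0.176 without and 0.0207 with it).

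Xl2.10087.3.S1_at read 4.39, 5.05 and 4.60 in Pax3 Zic1 Chx caps, 4.61, 4.91 and 4.35 in Pax3 Zic1 caps, 4.48, 4.69 and 4.24 in Pax3 Chx caps and 4.65, 4.48 and 4.27 in Pax3 caps, against 4.21, 4.33 and 3.91 in control caps. All samples with both factors exceeded the controls, and single samples of the Pax3 groups did not. The one call was a difference of 0.53 ± 0.21 between Pax3 Zic1 Chx and control caps with the block (limma adjusted p = 0.209 without and 0.0171 with it). Spry2.S (Xl2.11964.1.S2_at) averaged 5.61 in Pax3 Zic1 Chx, 5.65 in Pax3 Zic1, 5.09 in Pax3 Chx and 5.32 in Pax3 caps, against 4.81 in control caps.

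**Figure D5:**
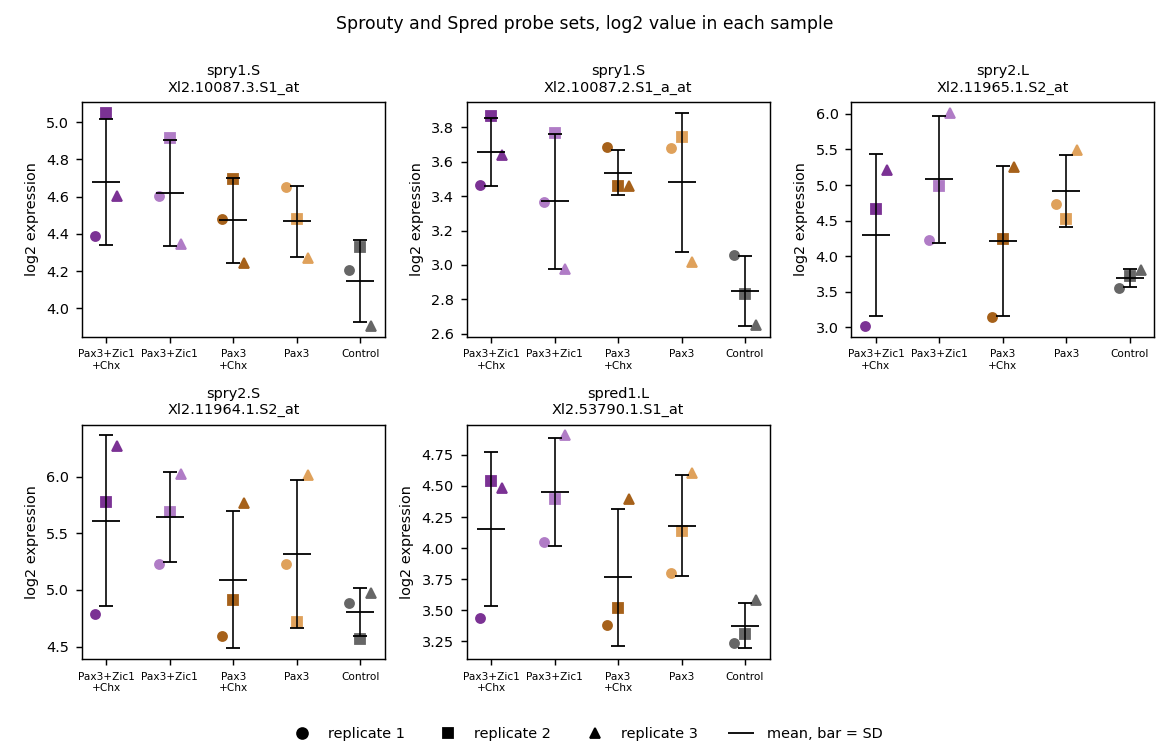
Log2 level of the 5 feedback inhibitor probe sets by group, one panel each, with Pax3 Zic1 Chx caps at the left and control caps at the right. Symbols give replicates 1 (circle), 2 (square) and 3 (triangle), black lines the mean and bars the SD (n = 3). For spred1.L and spry2.L all Pax3 Zic1 and Pax3 samples lie above the controls, while Chx samples reach down to them.

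A further 57 genes of the pathway were each read by their brightest probe set. Of these, limma called 3 higher and 0 lower in Pax3 Zic1 Chx over control caps, where 2.21% of all probe sets rose and 2.35% fell. It called 0 of the 57 in the other comparisons, where 1 to 10 had an unadjusted p under 0.05, a level at which no share of all probe sets was counted. Flrt3.L, a membrane protein that promotes FGF signalling in Xenopus, averaged 7.19 in Pax3 Zic1 Chx and 3.90 in control caps (3.29 ± 0.80, limma adjusted p = 0.0355). Its copy flrt3.S averaged 6.06 in Pax3 Zic1 Chx and 3.61 in control caps (2.45 ± 0.46, limma adjusted p = 0.00861). Dusp5.S, a phosphatase that acts on MAP kinase, averaged 8.90 in Pax3 Zic1 Chx and 7.13 in control caps (1.77 ± 0.39, limma adjusted p = 0.0216). With the block, flrt3.L was also called higher than control in Pax3 Zic1 (2.76, limma blocked adjusted p = 0.0019) and Pax3 Chx caps (2.03, 0.00346). So was flrt3.S, by 2.16 (blocked 0.0131) and 1.64 (0.0213) in the same order, and dusp5.S in Pax3 Zic1 caps (1.36, blocked 0.00468).

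With the block, 16 of the 57 were called higher and 1 lower in Pax3 Zic1 Chx, 4 and 0 in Pax3 Zic1, 15 and 0 in Pax3 Chx and 1 and 1 in Pax3 caps over control. The same fit called 9.15% of all probe sets higher and 9.78% lower in Pax3 Zic1 Chx, 2.17% and 2.18% in Pax3 Zic1, 7.87% and 6.99% in Pax3 Chx and 0.839% and 1.3% in Pax3 caps. For Zic1-GR the blocked limma fit called 1 of the 57 in each drug setting, dusp5.S, beside 1.12% of all probe sets without and 0.744% with cycloheximide. It was 1.60 ± 0.39 higher in Pax3 Zic1 than in Pax3 caps (limma adjusted p = 0.306 without and 0.00616 with the block) and 1.45 ± 0.39 higher in Pax3 Zic1 Chx than in Pax3 Chx caps (0.478 without and 0.0112 with it). Of 19 transcription factor and early response genes downstream of the pathway, limma called 0 in any comparison without the block, with 0 to 3 at an unadjusted p under 0.05. With the block it called 6 higher in each Chx group over control and 0 in the other groups over control. The list includes both tbxt copies, which also stand among the mesoderm markers. Its median difference from control was 0.39 in Pax3 Zic1 Chx, 0.00 in Pax3 Zic1, 0.04 in Pax3 Chx and −0.12 in Pax3 caps.

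The 5 genes whose levels ran most like fgf8.L (Xl2.32349.1.A1_s_at) over the 15 samples, of 15477 probe sets compared, were otx1.L, mab21l2.S, efnb2.S, nkx6-2.L and gsc.L. Their Pearson r was 0.942, 0.939, 0.920, 0.920 and 0.918, in that order, and Spearman's rho 0.950, 0.925, 0.861, 0.911 and 0.871. These points share their groups. After each group's mean was taken away r was 0.697 for otx1.L, 0.504 for mab21l2.S, 0.747 for efnb2.S, 0.346 for nkx6-2.L and 0.643 for gsc.L.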

How the data were processed

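Total RNA (10 µg) was labelled with biotin and hybridised to Affymetrix arrays, per the labels' protocols. The deposited table holds log2 values per probe set, a scale read from the values (0.798 to 13.3); the submitters' processing notes name R 2.14.2, and the background correction, normalization, summary and detection were not stated there or in the labels (not given in the sources used here). These steps could shrink changes of dim probe sets. Precision rests on 3 samples per group.

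Of 32635 probe sets, 96 Affymetrix controls were left out. The 16 arrays came from 15 samples: Pax3 Zic1 arrays 2.1 and 2.2, labelled as the same biological replicate, were averaged. limma 3.58.1 in R 4.3.3 (lmFit, eBayes) was run on all 15 samples, two-sided, after a check on simulated data. Replicates are biological by label; separate clutches are not stated. Deviations from group means correlated at 0.428 to 0.864 in 30 same-number pairs, with a median of 0.730, so the numbers pair the samples and a blocked fit was added. The 60 other pairs correlated at −0.534 to −0.0956. Deviations cancel out within a group, so positive same-number values force the others negative on average, and the others are no separate evidence.

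Of the probe sets, 15495 had 1 symbol in the platform annotation, 279 several and 16765 none. The RefSeq table (Xenopus_laevis_v10.1) held the gene IDs of 15384 and updated 2 symbols. Members called in either fit, and all probe sets of fgf8, fgfr4 and spred1, are given in every sample. Pathway genes are named when called without the block, and the 5 probe sets with the highest r to fgf8.L are named. Members and lists were chosen with earlier results of these data known. Alternatives were the block, single technical arrays, quantile normalization, a filter on dim probe sets, fits on the compared groups and leaving out each sample. Sequences were not used here.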

Additional observations from a re-analysis of the deposited data

Results flagged for a closer look

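Receptor and ligand probe sets, 5 in number, lay above control caps in all 3 replicate numbers of Pax3 Chx caps and below them in all 3 of Pax3 caps. Each was compared between Pax3 Chx and Pax3 caps. Since probe sets were picked here for groups on opposite sides of control caps, the sign of each difference follows from the choice. The choice also favours small p-values, above all in the blocked fit, so the p-values in this paragraph are no separate evidence. How many of all probe sets meet the same rule was not counted. The difference was 1.17 for fgfr4.L (limma adjusted p = 0.0149, blocked 0.000536) and 1.55 for fgfr4.S (0.0191, blocked 0.00155), both past the threshold. It was 0.94 for fgf3.L (limma adjusted p = 0.207, blocked 0.0285), and for fgfr2.L 1.59 in Xl2.16135.1.A1_at (0.294, blocked 0.00163) and 1.33 in Xl2.1182.1.S1_at (0.368, blocked 0.0151), called with the block only. Control caps overlapped Pax3 Chx caps for fgf3.L, and both groups for both fgfr2.L probe sets. In 3 further cases a pair of groups lay on opposite sides of the controls in every replicate number. Fgfr4.L was below control in Pax3 Zic1 Chx and above it in Pax3 Chx caps, with a difference of −0.67 for both factors against Pax3 (limma adjusted p = 0.614, blocked 0.0327). In Pax3 Zic1 Chx caps it differed from control by only −0.22, −0.02 and −0.37 by replicate number. That group overlapped control caps and was not called (limma adjusted p = 0.716, blocked 0.298). The fgfr2.L probe set Xl2.16135.1.A1_at was above control in Pax3 Zic1 and below it in Pax3 caps, with a difference of 0.58 that was not called (limma adjusted p = 1, blocked 0.259). Both of these groups overlapped control caps in that probe set. Fgf20.L was above control in Pax3 Zic1 Chx and below it in Pax3 Chx caps, with a difference of 1.12 that was not called (limma adjusted p = 1, blocked 0.286). Its differences from control by replicate number were only −0.07, −0.55 and −0.03 in Pax3 Chx caps, and both groups overlapped control caps.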

How the results depend on the processing

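With the replicate block, 10 members were called in Pax3 Zic1 Chx, 8 in Pax3 Zic1, 7 in Pax3 Chx and 6 in Pax3 caps over control caps, 1 in Pax3 Zic1 Chx over Pax3 Chx, 5 in Pax3 Chx over Pax3 and 5 in Pax3 Zic1 Chx over Pax3 Zic1 caps; without it these counts were 5, 3, 3, 0, 0, 2 and 1. The block changed no call for the effect of Zic1 without cycloheximide or for the interaction, at 0. Fits on only the groups compared, which have fewer samples to set the spread, called 0 members in Pax3 Zic1 over control, in Pax3 Chx over Pax3 and in Pax3 Zic1 Chx over Pax3 Zic1 caps. They also lost the fgf3.L call in Pax3 Zic1 Chx over control caps (1.25, adjusted p = 0.128). The filter on dim probe sets left 10 of 18 members and called 1 in Pax3 over control caps; the cause was not tested. With 1 sample left out, counts ran from 3 to 7 in Pax3 Zic1 Chx, 0 to 5 in Pax3 Zic1, 3 to 3 in Pax3 Chx and 0 to 3 in Pax3 caps over control, 0 to 2 in Pax3 Chx over Pax3, 0 to 1 in Pax3 Zic1 Chx over Pax3 Zic1, and 0 to 0 for both effects of Zic1 and the interaction. Such fits also change the spread that all groups share: without Pax3 Zic1 Chx replicate 1, all 3 responding fgf8.L probe sets were called in Pax3 over control caps (adjusted p = 0.0378, 0.0286 and 0.0337). Quantile normalization and either array of the technical pair alone changed no count by over 1.5 times, and 0 of 872 member values reversed under the alternatives run. Many of these values could not reverse. The block and the fits on the compared groups leave each difference unchanged, as does leaving out a sample of neither group. The values were also those called in the fit without or with the block, so the count does not measure robustness. Signal over background is not given, so dim members such as fgf8.L Xl2.20011.2.A1_at may be unmeasured.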

Other observations

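The pair of arrays made from one Pax3 Zic1 sample gives the technical spread of the members. Over the 18 probe sets the arrays differed by a median of 0.0941, and by 0.44 at most, for spry1.S (Xl2.10087.2.S1_a_at), which read 3.99 and 3.55. Among the germ layer markers, myf5.L, a muscle regulator, rose in Pax3 Chx over Pax3 caps (2.64, limma adjusted p = 0.0101), as did the ectodermal factor foxi1.L (1.61, adjusted p = 0.00463). Foxi1.L rose in Pax3 Zic1 Chx over Pax3 Zic1 caps as well (2.92, limma adjusted p = 4.21e-05), while the epidermal keratins krt12.4.L and krt70.L fell by 2.44 and by 3.72 (adjusted p = 0.03 and 0.0326).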
